A study of Mus musculus with 18 samples.

Results

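Serpins are a family of protease inhibitors, and 8 of their genes were followed through mouse CD4 T cells with and without Id3: Serpinb1a, Serpinb6a, Serpinb6b, Serpinb9, Serpina3f, Serpina3g, Serpine2 and Serpinf1. The members are a set list of names, chosen with earlier results of these data known, and all 8 were found among the 12547 genes of the expression table, which holds 16 rows with a serpin name. Naive CD4 T cells had been stimulated through CD3 and CD28 with antibody-coated beads. Their culture medium held serum, the cytokines IL2 and IL12, and an IL4-blocking antibody, and it favours the Th1 fate, in which helper T cells produce interferon gamma. Id3 knockout cells (KO) and wild types (WT) were both profiled in sets 3, 5 and 6, which makes 6 groups of 3 libraries. All cells, KO and WT, received the same beads, cytokines and antibody. The meaning of the set numbers, the way Id3 was deleted, the strain and age of the mice and the origin of the replicates are not stated by the labels. The p-values below therefore measure the spread between these libraries, which may be technical. In its names for the contrasts, the authors' deposited table puts 24 beside set 3 and 96 beside sets 5 and 6, without a unit.

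Most serpins work as single-use traps. A protease cleaves an exposed loop of the serpin, the serpin snaps into a new fold, and the protease is left bound and distorted. Clade B serpins stay inside the cell, where they guard lymphocytes and myeloid cells against proteases that leak from their own granules. Other members are secreted and act on coagulation and tissue proteases, and a few, such as the product of Serpinf1, have lost the inhibitory function. Id3 is an inhibitor of E proteins, transcription factors that bind E-box sequences and shape T cell development and effector fate.

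Id3 itself followed the labels, with a log2 value of at most 5.63 in any KO library and at least 8.85 in any WT library. The KO libraries of set 5 stood at 2.02, 5.63 and 2.80, and those of set 6 at 1.0, 4.97 and 4.46, where 1.0 is the lowest value that library holds. The values are log2 normalised counts without correction for gene length, so levels are compared between libraries and never between genes. The median gene differed between KO and WT cells by -0.07 in set 3, by 0.39 in set 5 and by 0.42 in set 6. For this reason differences were also computed after each library's median was subtracted. These are called centred differences, and they are printed beside those results whose reading they bear on. RNA came from whole cultures, so a higher share of cells that express a gene and more RNA per cell cannot be told apart. Several members have near-identical relatives beside them in the genome, and no source used here says how reads were divided among such copies.

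In set 3 the members that passed the test moved one way. Serpinb1a, Serpinb6b, Serpinb9, Serpina3f and Serpina3g rose in KO cells, none fell, and Serpinb6a, Serpine2 and Serpinf1 did not pass the test. This makes 5 of 8 members, where 11.4% of all genes passed and 6.92% passed as higher (limma, Benjamini-Hochberg adjusted p under 0.05 over all genes). The count was 2 with the set 3 libraries fitted alone and 3 without KO replicate 1. None of 7 other serpin genes passed in this set, where Serpinb2, Serpinf2 and Serpinh1 had group means of 1.06 to 1.82, near the lowest values. In set 5, 3 members rose (Serpinf1, Serpina3f and Serpina3g) and 2 fell (Serpinb1a and Serpine2), where 58.2% of all genes passed, 50.1% as higher and 8.08% as lower. In set 6 only Serpinf1 rose while Serpinb1a and Serpine2 fell, 3 of 8 members, where 58.5% of all genes passed, 53.9% as higher and 4.59% as lower. Counted in both directions, 5 of 8 members in set 5 and 3 of 8 in set 6 are near or below these backgrounds. The 2 members that fell in each set stand against a smaller background of falls. Centring added Serpinb9 to the falls of both sets, with 49.6% of all genes passing in set 5 (24.7% as lower) and 37.2% in set 6 (18.5% as lower). The median member difference was 1.15 in set 3, 0.36 in set 5 and 0.18 in set 6, and -0.03 and -0.23 in sets 5 and 6 after centring.

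**Figure D1:**
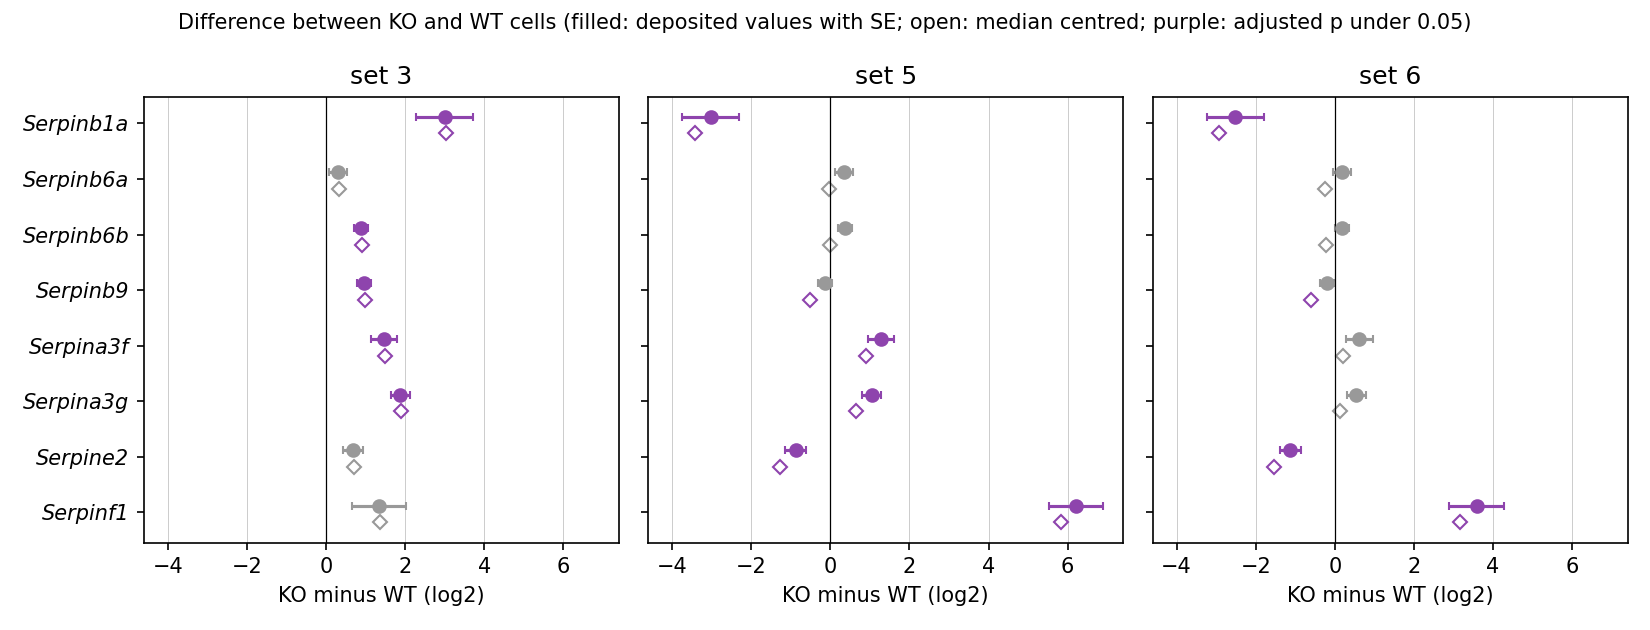
Difference of mean log2 values between KO and WT cells for the 8 serpin genes in sets 3, 5 and 6. Filled points are the deposited values with their standard error, open points are after median centring, and purple marks an adjusted p under 0.05; Serpinb1a lies at 3.01 in set 3 and at -3.02 and -2.51 in sets 5 and 6, while Serpinf1 reaches 6.21 in set 5.

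Serpinb1a changed direction between sets. It encodes an intracellular inhibitor of neutrophil elastase, cathepsin G and proteinase 3. In set 3 its log2 values were 6.98, 5.19 and 6.23 in KO libraries, against 3.08, 4.0 and 2.31 in WT libraries. All KO libraries lay above all WT libraries, and the gene was 8.03-fold higher in KO cells (difference 3.01, SE 0.72, adjusted p = 0.0127). In set 5 the order was the opposite, with 3.07, 6.23 and 4.49 in KO libraries and 7.96, 7.42 and 7.47 in WT libraries. The difference was -3.02 (SE 0.72, adjusted p = 0.00177), or -3.41 after centring. Set 6 gave 4.78, 7.36 and 5.88 in KO libraries and 8.87, 8.24 and 8.44 in WT libraries, again with no overlap, and a difference of -2.51 (SE 0.72, adjusted p = 0.00675), or -2.92 after centring. The KO libraries of sets 5 and 6 were spread widely (SD 1.58 and 1.29, n = 3 each), against SDs of 0.30 and 0.32 in WT libraries. The change of direction was itself past the test: the KO effect in set 5 minus that in set 3 was -6.03 (SE 1.01, adjusted p = 0.000148), and in set 6 minus set 3 it was -5.52 (SE 1.01, adjusted p = 0.000363). The WT cells moved most, with a mean of 7.62 in set 5 against 3.13 in set 3, a rise of 4.49 (SE 0.72, adjusted p = 3.84e-05). In KO cells the mean was 4.59 in set 5 against 6.13 in set 3 (difference -1.54, adjusted p = 0.0636, and -1.92 with adjusted p = 0.0246 after centring). The rise in set 3 did not pass without KO replicate 1 (adjusted p = 0.0758), without WT replicate 3 (0.0563) or with 64 added on the linear scale (0.0682), which reduced the difference to 0.91.

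**Figure D2:**
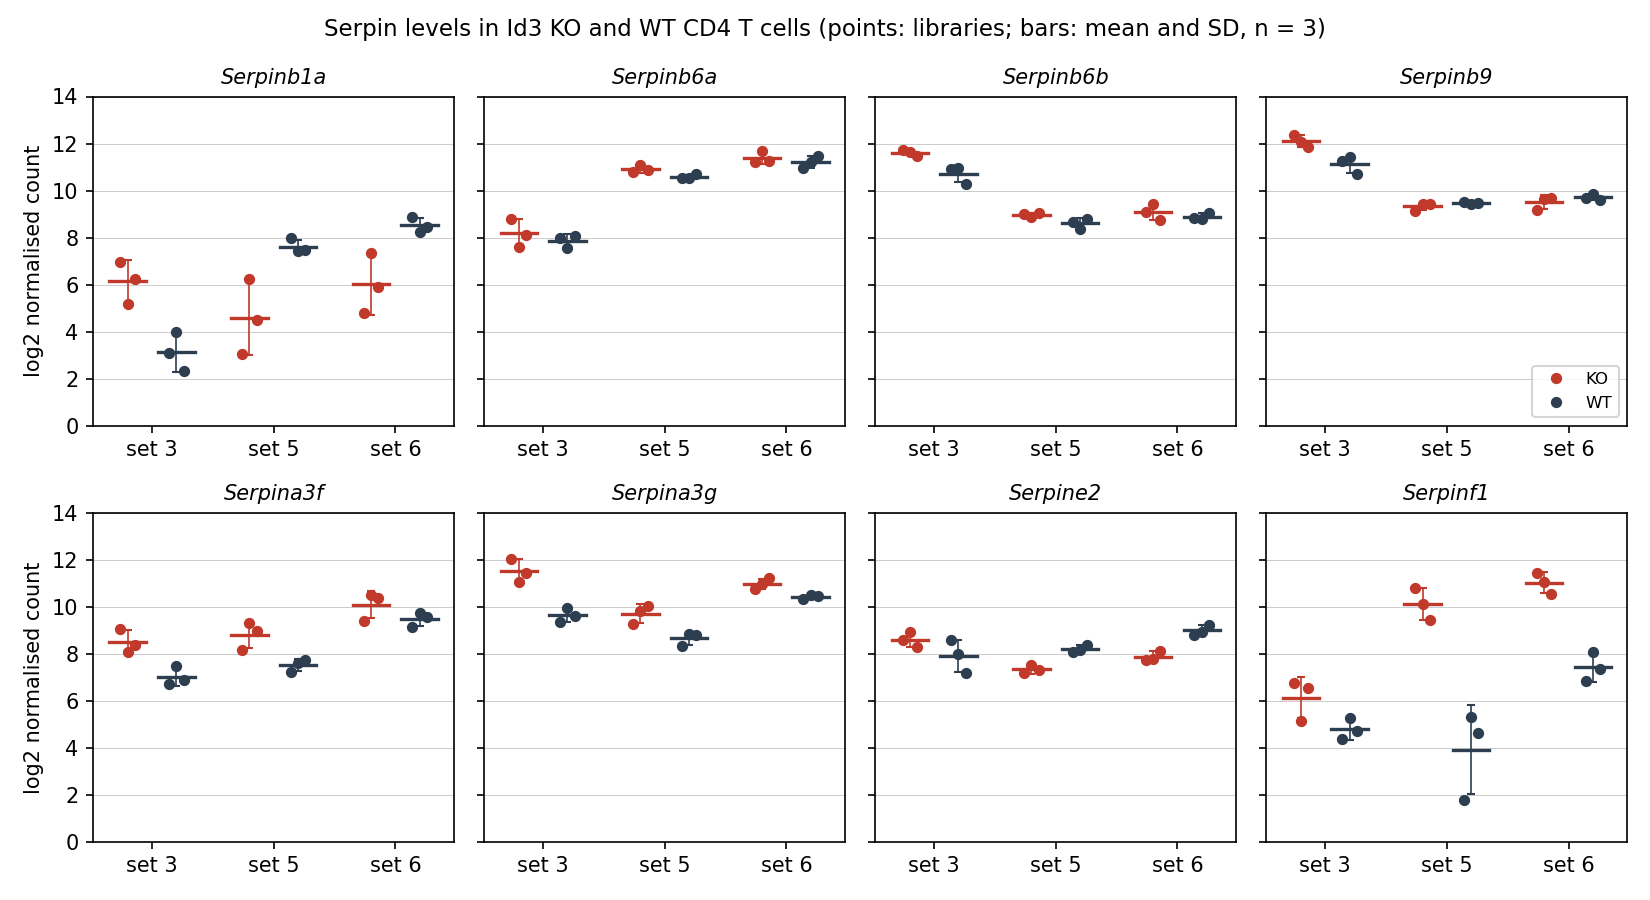
Log2 normalised count of each of the 8 serpin genes in KO (red) and WT (dark) libraries of sets 3, 5 and 6. Points are single libraries, horizontal bars are means and vertical bars are SDs (n = 3); Serpinb6b and Serpinb9 are highest in KO cells of set 3, with means of 11.61 and 12.09, while Serpinb6a is low there and high in sets 5 and 6.

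Serpinb9 and Serpinb6b, the granzyme inhibitors of the group, rose together in set 3. Serpinb9 encodes the inhibitor of granzyme B, the protease that cytotoxic lymphocytes deliver into target cells, and protects the killer cell from its own granules. The product of Serpinb6b is an inhibitor of granzyme A in mice. In set 3 Serpinb9 had log2 values of 12.36, 12.08 and 11.84 in KO libraries and 11.27, 11.42 and 10.71 in WT libraries. Serpinb6b had 11.71, 11.63 and 11.48 in KO libraries and 10.92, 10.96 and 10.29 in WT libraries. Neither gene's groups overlapped, and the differences were 0.96 (SE 0.18, adjusted p = 0.00239) and 0.89 (SE 0.18, adjusted p = 0.00463), 1.95-fold and 1.85-fold higher in KO cells. Both calls were lost when the set 3 libraries were fitted alone, with adjusted p = 0.0574 for Serpinb9 and 0.0527 for Serpinb6b.

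In sets 5 and 6 neither gene of the pair passed between genotypes on the deposited scale. Serpinb9 lay between 9.15 and 9.44 in KO libraries and between 9.42 and 9.52 in WT libraries of set 5, with a difference of -0.14 (SE 0.18, adjusted p = 0.531). In set 6 it lay between 9.16 and 9.70 in KO libraries and between 9.60 and 9.83 in WT libraries, a difference of -0.20 (adjusted p = 0.348). Relative to the median gene, Serpinb9 fell in KO cells by 0.53 in set 5 (adjusted p = 0.0212) and by 0.61 in set 6 (adjusted p = 0.0126). Serpinb6b differed by 0.37 in set 5 and 0.19 in set 6, or by -0.02 and -0.22 after centring, and passed in neither. The KO effect on Serpinb9 was lower than in set 3 by a tested amount, -1.10 in set 5 (SE 0.25, adjusted p = 0.00173) and -1.16 in set 6 (SE 0.25, adjusted p = 0.00122). For Serpinb6b the same difference was -0.52 in set 5 (adjusted p = 0.103, and 0.00969 after centring) and -0.70 in set 6 (SE 0.25, adjusted p = 0.0322). The set 6 value of Serpinb6b missed the threshold against a minimum fold of 1.2 (adjusted p = 0.134) and without any of 6 single libraries.

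The larger change of both genes was between sets. Serpinb9 fell by 2.75 in KO cells and by 1.65 in WT cells of set 5 relative to set 3, and Serpinb6b fell by 2.63 in KO cells and by 2.12 in WT cells (SE 0.18 each, adjusted p from 9e-10 to 4.87e-07). All libraries of sets 5 and 6 lay below all libraries of set 3 for both genes. Over the 18 libraries Serpinb9 was the gene most like Serpinb6b and Serpinb6b the gene most like Serpinb9 (Pearson r = 0.967), among genes with a mean log2 value of 6 or more. The 18 points share sets and genotypes, and the set 3 libraries lie apart from the cloud of the others, so this is a description of the gap between sets. The 2 genes are neighbours on chromosome 13, with no other protein-coding gene between them in the RefSeq order.

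Serpinb6a, which encodes an inhibitor of cathepsin G and other trypsin-like and chymotrypsin-like proteases, ran the other way between sets and passed in no set by genotype in the fit of all groups. It lay between 7.62 and 8.81 in KO libraries and between 7.56 and 8.07 in WT libraries of set 3. In set 5 it lay between 10.80 and 11.10 in KO libraries and between 10.52 and 10.69 in WT libraries, and in set 6 between 11.22 and 11.68 in KO libraries and between 10.95 and 11.46 in WT libraries. The KO minus WT difference was 0.31, 0.34 and 0.18 in sets 3, 5 and 6 (SE 0.23 each, adjusted p = 0.400, 0.213 and 0.531), and turned to -0.05 and -0.24 in sets 5 and 6 after centring. The set 5 difference passed with the compared groups alone (adjusted p = 0.0187). Set 5 cells exceeded set 3 cells by 2.74 in KO cells (adjusted p = 1.84e-08) and by 2.71 in WT cells (adjusted p = 3.49e-08), 6.68-fold and 6.55-fold. Its correlation with Serpinb6b over the 18 libraries was -0.882, so the near relatives Serpinb6a and Serpinb6b followed opposite courses between sets.

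Among the proteases that these inhibitors meet, Gzmb, the gene of granzyme B, stood at 16.15, 14.72 and 15.55 in KO libraries and at 13.19, 13.81 and 13.81 in WT libraries of set 3. It rose there by 1.87 (SE 0.26, adjusted p = 0.000317), in the set in which Serpinb9 rose. In sets 5 and 6 Gzmb differed by 0.07 and 0.21, with the same SE (adjusted p = 0.836 and 0.505), and by -0.32 and -0.20 after centring. Gzma, the gene of granzyme A, rose in KO cells of each set, by 3.19, 7.46 and 6.03 with an SE of 0.55 (adjusted p = 0.00155, 3.39e-08 and 3.43e-07). Serpinb6b passed in set 3 only, and the difference between the genes was not tested. Of 11 measured granzyme and perforin genes, with the granule proteoglycan gene Srgn, 5 rose in set 3, 8 in set 5 and 2 in set 6, and none fell. Of all genes 6.92%, 50.1% and 53.9% rose. The list's median differences were 1.05, 1.86 and 0.21, beside -0.07, 0.39 and 0.42 for all genes. Ctsg, the cathepsin G gene, was not among the genes of the expression table. Mast cell and granulocyte protease genes were measured in 6 of 13 cases, and all 6 rose in set 3, with a median of 4.5. Tpsb2, a mast cell tryptase gene, rose by 5.60 (SE 0.42, adjusted p = 1.03e-06) and Mcpt4, a mast cell chymase gene, by 4.71 (SE 0.48, adjusted p = 2e-05). In set 5 none of the 6 passed in either direction, and in set 6 Cpa3, a mast cell carboxypeptidase gene, rose by 1.41 (SE 0.56, adjusted p = 0.0409, and 0.177 after centring).

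Serpina3g and Serpina3f belong to the mouse antichymotrypsin cluster and are direct neighbours on chromosome 12. Serpina3g encodes an intracellular inhibitor of cathepsins B and L that protects activated and memory lymphocytes from lysosomal death, and Serpina3f is its close relative. Serpina3g stood at 12.05, 11.04 and 11.43 in KO libraries and at 9.36, 9.95 and 9.59 in WT libraries of set 3. Every KO library lay above every WT library, and the gene was 3.67-fold higher in KO cells (difference 1.88, SE 0.24, adjusted p = 0.000149). Serpina3f stood at 9.06, 8.07 and 8.36 in KO libraries and at 6.71, 7.46 and 6.90 in WT libraries, a difference of 1.47 (SE 0.33, adjusted p = 0.00921). The Serpina3f call was lost without KO replicate 1 (adjusted p = 0.0629) and when the set 3 libraries were fitted alone (0.0561), while Serpina3g passed under every alternative tried, with adjusted p up to 0.0222.

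In set 5 Serpina3g stood at 9.25, 9.82 and 10.04 in KO libraries and at 8.34, 8.83 and 8.78 in WT libraries. Serpina3f stood at 8.17, 9.29 and 8.98 in KO libraries and at 7.24, 7.61 and 7.75 in WT libraries. Both genes were again higher in every KO library than in any WT library. The differences were 1.05 (SE 0.24, adjusted p = 0.00125) for Serpina3g and 1.28 (SE 0.33, adjusted p = 0.0036) for Serpina3f. They shrank to 0.66 (adjusted p = 0.0301) and 0.89 (0.0364) after centring, and neither passed a minimum fold of 1.2 after centring (0.167 and 0.128). In set 6 Serpina3g stood at 10.75, 10.97 and 11.20 in KO libraries and at 10.33, 10.49 and 10.46 in WT libraries, which did not overlap, and Serpina3f ranged from 9.42 to 10.51 in KO libraries and from 9.14 to 9.72 in WT libraries, which did. The differences of 0.55 (SE 0.24, adjusted p = 0.059) and 0.62 (SE 0.33, adjusted p = 0.123) did not pass. Without KO replicate 1 of set 6 both passed, with adjusted p = 0.0489 for Serpina3g and 0.0239 for Serpina3f, and with the compared groups alone Serpina3g passed (0.00517). Their centred differences were 0.14 and 0.21.

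The KO effect on Serpina3g was smaller in set 6 than in set 3 by a tested amount (-1.33, SE 0.34, adjusted p = 0.00396). Between sets 5 and 3 the difference of effects was -0.83 (SE 0.34, adjusted p = 0.0513), and it passed after centring (-1.24, adjusted p = 0.00914). For Serpina3f these differences were -0.85 (adjusted p = 0.146) and -0.19 (0.760). Over the 18 libraries the neighbours correlated less closely (r = 0.636) than Serpinb6b and Serpinb9, as a description. The set 3 libraries, KO and WT, had more Serpina3g at a given level of Serpina3f than the libraries of sets 5 and 6. The genes most like Serpina3g were Cd63 (r = 0.924), Il13 (0.920) and Efhd2 (0.915), and those most like Serpina3f were Asb2 (0.939), Kcnk6 (0.928) and Cemip2 (0.928).

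**Figure D3:**
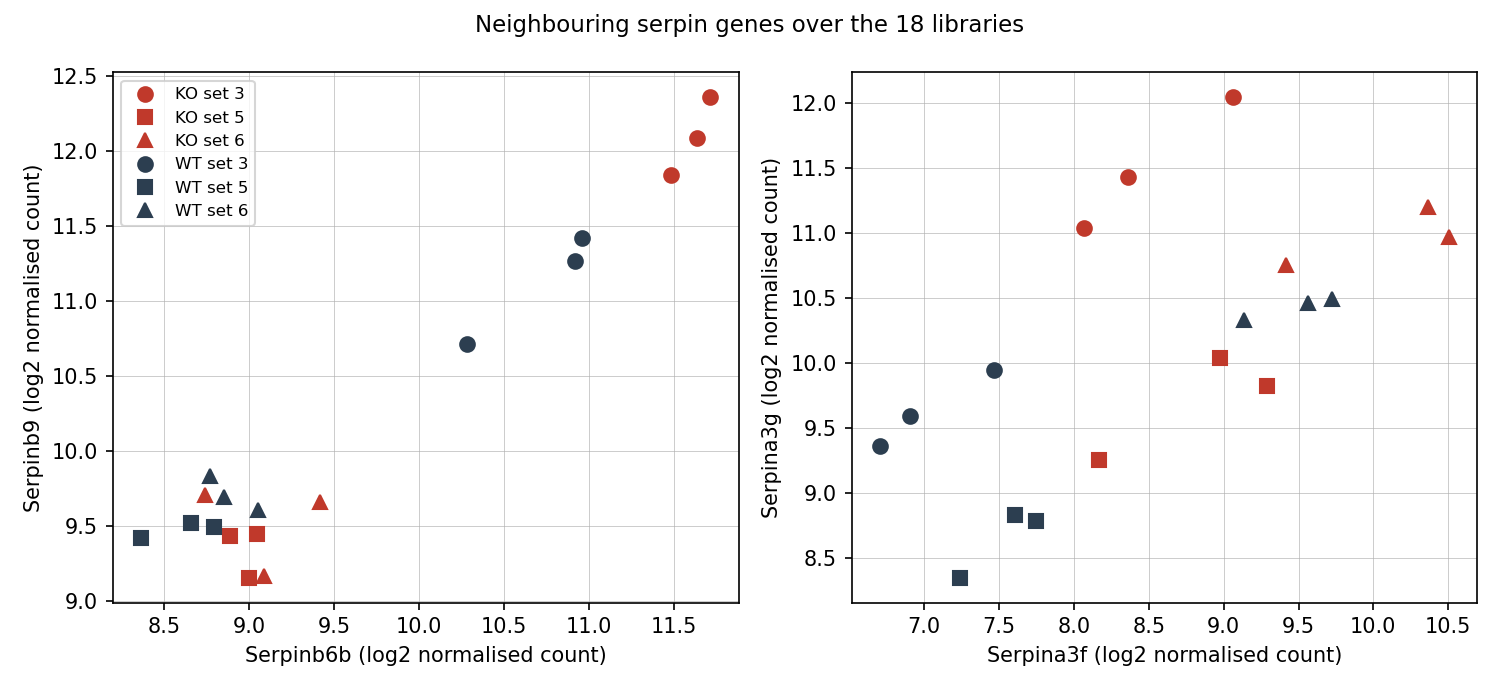
Log2 normalised counts of 2 pairs of neighbouring genes in the 18 libraries, Serpinb9 against Serpinb6b (left) and Serpina3g against Serpina3f (right). Red marks KO and dark marks WT libraries, and the shape marks the set; in the left pair (r = 0.967) the set 3 libraries lie apart at the top right and the others form a cloud at the bottom left, and in the right pair (r = 0.636) the set 3 circles sit above other libraries of like Serpina3f.

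The stretches before the starts of these neighbours are printed because they resemble each other. The sequences are the 250 bases before the annotated start, from RefSeq on GRCm38.p6, both on the plus strand of chromosome 12. Serpina3f start 1 is chr12:104214294-104214543 and Serpina3g is chr12:104235897-104236146. Capitals mark the bases that were aligned and identical in both.
Serpina3f start 1: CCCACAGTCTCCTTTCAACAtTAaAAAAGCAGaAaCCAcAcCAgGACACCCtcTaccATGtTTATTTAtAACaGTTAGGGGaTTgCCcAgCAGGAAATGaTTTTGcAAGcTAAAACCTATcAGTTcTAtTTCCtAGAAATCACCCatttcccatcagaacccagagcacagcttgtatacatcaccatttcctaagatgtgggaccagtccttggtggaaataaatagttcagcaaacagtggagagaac
Serpina3g: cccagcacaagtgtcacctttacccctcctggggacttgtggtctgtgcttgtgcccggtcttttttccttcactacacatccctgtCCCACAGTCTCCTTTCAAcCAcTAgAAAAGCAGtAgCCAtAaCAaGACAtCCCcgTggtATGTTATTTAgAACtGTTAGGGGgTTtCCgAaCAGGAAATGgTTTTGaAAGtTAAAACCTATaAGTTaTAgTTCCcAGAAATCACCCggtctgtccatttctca
The best local alignment of the 2 stretches covered 147 columns, of which 119 were identical (81.0%). It spanned positions -250 to -106 of Serpina3f start 1 and -163 to -18 of Serpina3g, counted back from the start. A second annotated start of Serpina3f shares 161 bases of this window. The start of Serpina3g was the only one of those examined whose first bases were not found in a GENCODE M21 transcript, so its position is less certain.

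Motifs were searched on both strands of the windows of 7 members. They were an E-box with the letters CAGCTG, a second E-box with the letters CACCTG, the GATA letters AGATAA, and the STAT6-type and NF-kB-type sites. Of all 32851 windows of the same length, 13.0% held the first E-box, 17.2% the second E-box, 5.85% the STAT6-type site, 9.99% the GATA letters and 1.21% the NF-kB-type site. Serpinb6a held the first E-box (-86 to -81) and the second (-17 to -12) at its second start and none of these letters at its first. The windows of Serpina3f, Serpina3g, Serpinb6b, Serpinb9 and Serpine2 held none of them. No matches overlapped one another. A match is a string of letters and not a measured binding site.

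Il13, among the genes most like Serpina3g, belongs to a list of genes of IL4, STAT6 and the Th2 fate. Of its 13 genes, 10 rose in set 3, where 6.92% of all genes rose, and 12 in sets 5 and 6, where 50.1% and 53.9% did, and none fell. After centring 11 rose in each set, beside 7.29%, 24.9% and 18.8% of all genes in sets 3, 5 and 6. In set 6, 1 fell after centring, beside 18.5% of all genes.

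The genes of the cathepsins that Serpina3g blocks passed in sets 5 and 6 on the deposited scale and in no set after centring, and the difference between sets was not tested for them here. Ctsb, the gene of cathepsin B, differed by -0.08 in set 3 (adjusted p = 0.672) and rose by 0.56 and 0.46 in sets 5 and 6 (adjusted p = 0.000451 and 0.00254). Ctsl, the gene of cathepsin L, differed by -0.32 in set 3 (adjusted p = 0.345) and rose by 0.64 and 0.59 (adjusted p = 0.0177 and 0.0264). With centring neither gene passed in any set, with differences of 0.17 and 0.04 for Ctsb and 0.25 and 0.18 for Ctsl in sets 5 and 6. Of 16 lysosomal protease genes, 4 rose and none fell in set 3, 11 rose and 2 fell in set 5, and 11 rose and none fell in set 6. Of all genes 6.92%, 50.1% and 53.9% rose in these sets. After centring 7 rose and 2 fell in set 5 (24.9% and 24.7% of all genes), and 6 rose and 3 fell in set 6 (18.8% and 18.5% of all genes). Ctsw, a cathepsin gene of cytotoxic lymphocytes, rose by 1.44 in set 3 (SE 0.21, adjusted p = 0.000413).

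Serpine2 encodes protease nexin-1, an extracellular inhibitor of thrombin, urokinase and tissue plasminogen activator. It was lower in KO cells of sets 5 and 6. In set 5 its log2 values were 7.17, 7.54 and 7.30 in KO libraries, against 8.06, 8.18 and 8.39 in WT libraries. In set 6 they were 7.72, 7.76 and 8.13 in KO libraries, against 8.81, 8.95 and 9.25 in WT libraries. No KO library reached a WT library of its set, and Serpine2 fell by 0.87 in set 5 (SE 0.26, adjusted p = 0.00907) and by 1.13 in set 6 (SE 0.26, adjusted p = 0.00158), or by 1.26 and 1.54 after centring. Under every alternative tried both falls passed, with adjusted p up to 0.0453 in set 5 and 0.00978 in set 6. In set 3 the KO libraries had 8.60, 8.92 and 8.28 and the WT libraries 8.57, 7.98 and 7.2, which overlapped, and the difference of 0.68 did not pass (SE 0.26, adjusted p = 0.105). Without WT replicate 1 of set 3 it was 1.01 and passed (adjusted p = 0.0188). The KO effect was lower than in set 3 by a tested amount, -1.56 in set 5 (SE 0.37, adjusted p = 0.00242) and -1.81 in set 6 (SE 0.37, adjusted p = 0.000845). KO cells of set 5 had less Serpine2 than KO cells of set 3 (-1.27, SE 0.26, adjusted p = 0.000374), and WT cells differed by 0.29 (adjusted p = 0.344).

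The thrombin receptor gene F2r rose in KO cells of each set, by 1.91, 1.59 and 1.80 with an SE of 0.18 (adjusted p = 8.33e-06, 1.49e-06 and 6.63e-07). Its log2 values in set 5 were 13.38, 13.42 and 13.60 in KO libraries, against 11.83, 11.87 and 11.93 in WT libraries. F2rl2, a related receptor gene, rose as well, by 1.76, 1.16 and 1.09. Plat, the gene of tissue plasminogen activator, rose by 1.49 in set 3 (SE 0.46, adjusted p = 0.046), fell by 1.9 in set 5 (adjusted p = 0.00199) and differed by -0.33 in set 6 (adjusted p = 0.556). All of its values were low, between 1.83 and 5.38. Plau, the urokinase gene, passed in no set. Of 13 measured genes of the thrombin and plasminogen system, 4 rose and none fell in set 3, 3 rose and 2 fell in set 5, and 3 rose and 1 fell in set 6. Of all genes 6.92%, 50.1% and 53.9% rose in these sets, so the rises in sets 5 and 6 were below the background. After centring 2 rose and 3 fell in set 5 (24.9% and 24.7% of all genes), and 3 rose and 4 fell in set 6 (18.8% and 18.5% of all genes).

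Serpinf1 had the largest difference of the 8 members in sets 5 and 6. It encodes pigment epithelium-derived factor, a secreted serpin that inhibits no protease and is known for blocking vessel growth. In set 5 its log2 values were 10.80, 10.11 and 9.44 in KO libraries, against 1.76, 5.33 and 4.64 in WT libraries. In set 6 they were 11.44, 11.07 and 10.55 in KO libraries, against 6.86, 8.09 and 7.36 in WT libraries. The groups lay far apart in both sets. Serpinf1 rose by 6.21 in set 5 (SE 0.69, adjusted p = 1.5e-06) and by 3.58 in set 6 (SE 0.69, adjusted p = 0.000353), 12.0-fold in set 6. Set 5 WT replicate 1 was near the lowest values of the table, and without it the difference was 5.13. Over all alternatives tried the set 5 difference ran from 3.79 to 6.92, with adjusted p up to 0.000567. Centred differences were 5.82 and 3.17.

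In set 3 Serpinf1 stood at 6.76, 5.13 and 6.53 in KO libraries and at 4.39, 5.28 and 4.72 in WT libraries, which overlapped, and the difference of 1.34 did not pass (SE 0.69, adjusted p = 0.225). The KO effect in set 5 exceeded that in set 3 by 4.87 (SE 0.98, adjusted p = 0.00067). In set 6 the difference from set 3 was 2.24 (SE 0.98, adjusted p = 0.0681), and 1.80 after centring (adjusted p = 0.195). It passed with 64 added on the linear scale (adjusted p = 0.000211), with the compared groups alone (0.0107) and with the replicate block within each genotype (0.0176). Serpinf1 rose in KO cells of set 5 relative to set 3 by 3.98 (SE 0.69, adjusted p = 7.25e-05), while in WT cells it differed by -0.88 (adjusted p = 0.273). In WT cells of set 6 it then rose by 3.53 relative to set 5 (SE 0.69, adjusted p = 0.0115). That last rise did not pass without WT replicate 2 or 3 of set 6 (adjusted p = 0.0673 and 0.0516) or with the compared groups alone (0.0641). Its size ran from 1.49 to 4.24 over all alternatives tried. The genes most like Serpinf1 over the 18 libraries were Gpx8 (r = 0.971), Rab35 (0.960) and Lnx2 (0.959).

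The window before the Serpinf1 start is shown as that of the member with the largest difference; it lies at chr11:75422624-75422873 on the minus strand of GRCm38.p6, from RefSeq, and capitals mark the GATA letters AGATAA at positions -137 to -132.
Serpinf1: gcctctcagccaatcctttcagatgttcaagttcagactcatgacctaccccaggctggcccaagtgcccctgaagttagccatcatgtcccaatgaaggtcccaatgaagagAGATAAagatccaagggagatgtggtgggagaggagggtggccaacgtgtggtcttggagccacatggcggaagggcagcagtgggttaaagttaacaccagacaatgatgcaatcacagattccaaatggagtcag
Gata3, the gene of the Th2 transcription factor that binds such letters, rose in KO cells by 2.52 in set 5 and 2.40 in set 6, with an SE of 0.11 (adjusted p = 1.16e-09 and 1.27e-09). Of all genes 50.1% and 53.9% rose in these sets, and 9.99% of all windows held the GATA letters. Whether Gata3 has a part in the Serpinf1 rise was not tested. None of the E-box letters searched stood in the Serpinf1 window.

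Genes of receptors of the Serpinf1 product were called in each set. Pnpla2, the gene of adipose triglyceride lipase, to which the protein binds, differed by -0.13 in set 3 (adjusted p = 0.331) and rose by 0.70 and 0.50 in sets 5 and 6 (SE 0.08 each, adjusted p = 2.19e-06 and 6.76e-05). After centring it rose in set 5 alone (0.31, adjusted p = 0.00475). Plxdc1, a membrane receptor gene, rose by 2.42 in set 3 (SE 0.39, adjusted p = 0.000889), where Serpinf1 did not pass. Of 6 measured receptor genes, 1 rose in set 3, and 3 rose and 1 fell in each of sets 5 and 6. Of all genes 6.92%, 50.1% and 53.9% rose in sets 3, 5 and 6, and 8.08% and 4.59% fell in sets 5 and 6. The receptor counts in sets 5 and 6 are therefore near the background of rises. After centring 1 rose and 3 fell in set 5 (24.9% and 24.7% of all genes) and 2 fell in set 6 (18.5% of all genes).

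Of the other serpin genes of the table, 7 are described: Serpinb2, Serpinb5, Serpinb9b, Serpinc1, Serpinf2, Serpinh1 and Serpini1. None of the 7 passed in set 3, where differences ran from -0.67 to 1.05. Serpinb5, the gene of maspin, which inhibits no protease, stood at 7.26, 6.90 and 5.37 in KO libraries and at 8.77, 9.10 and 9.13 in WT libraries of set 5. It fell by 2.49 in set 5 (SE 0.46, adjusted p = 0.000204) and by 2.97 in set 6 (SE 0.46, adjusted p = 4.34e-05), so that Serpinb1a, Serpinb5 and Serpine2 were the serpins described here that fell in both sets. In set 6 Serpinh1, the gene of a collagen chaperone, fell by 1.58 (adjusted p = 0.0275), and Serpinf2, the neighbour of Serpinf1 on chromosome 11 and the gene of the plasmin inhibitor, rose by 1.68 (adjusted p = 0.0143, and 0.0781 after centring). Both genes were low in set 6, with libraries of Serpinh1 between 2.21 and 4.55 and those of Serpinf2 between 1.415 and 4.71. Serpinb2, a plasminogen activator inhibitor gene, stood at 1.0, 1.98 and 1.82 in KO libraries and at 1.03, 7.48 and 7.04 in WT libraries of set 6, so that its difference of -3.58 (SE 1.28, adjusted p = 0.0243) rested on 2 WT libraries. Serpinb9b, the other neighbour of Serpinb9, passed in no set, with differences between -0.14 and 0.08. Serpinc1, the antithrombin gene, differed by 0.19, 0.25 and -0.22 in sets 3, 5 and 6, and Serpini1, the neuroserpin gene, by -0.28, 0.63 and 0.58, and neither passed.

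**Figure D4:**
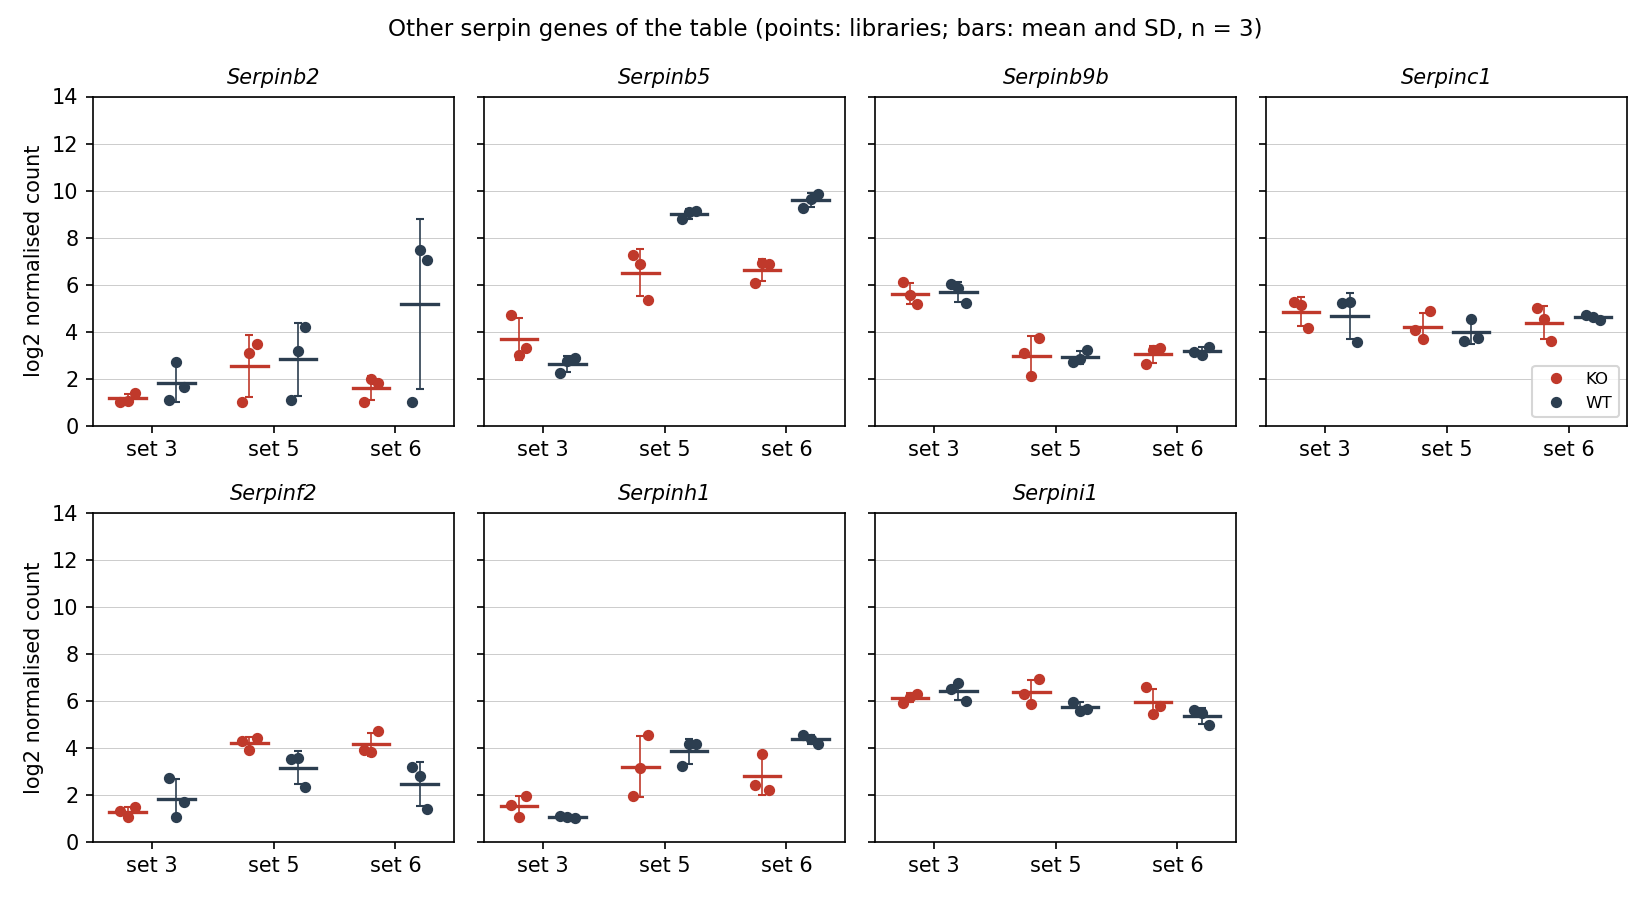
Log2 normalised count of 7 other serpin genes in KO (red) and WT (dark) libraries of sets 3, 5 and 6. Points are single libraries, horizontal bars are means and vertical bars are SDs (n = 3); Serpinb5 shows separate groups in sets 5 and 6, and the WT libraries of Serpinb2 in set 6 lie at 1.03, 7.48 and 7.04.

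Protease inhibitors of other families were also called. Of 18 measured genes of cystatins, TIMPs, Kunitz-type and related inhibitors, 5 rose and none fell in set 3, 13 rose and 2 fell in set 5, and 14 rose and 1 fell in set 6, beside the 6.92%, 50.1% and 53.9% of all genes that rose. After centring the counts were 6 and none, 8 and 3, and 11 and 3. Of all genes 7.29%, 24.9% and 18.8% then rose, and 3.28%, 24.7% and 18.5% fell, in sets 3, 5 and 6. Cst7, the gene of cystatin F, an inhibitor of lysosomal cathepsins in cytotoxic cells, rose by 1.32, 2.74 and 2.53 (SE 0.17 each, adjusted p = 0.000128, 7.57e-09 and 2.43e-08). Timp2, an inhibitor gene of matrix metalloproteases, fell by 1.08 and 1.24 in sets 5 and 6, and Slpi, the gene of a secreted inhibitor of neutrophil elastase, fell by 2.56 in set 5.

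Between sets 5 and 6 the KO effects on the serpins were not told apart. Of 12547 genes none passed for the difference of effects (limma, adjusted p under 0.05, 0% called), although 1320 had an unadjusted p under 0.05, among them 1 member, Serpinf1 (-2.62, SE 0.98, adjusted p = 0.406). Other settings called between 0 and 11 genes and no member. For set 5 against set 3, 4 members differed in KO effect, where 50.0% of all genes did: Serpinf1 upward, and Serpinb1a, Serpinb9 and Serpine2 downward, where 43.2% and 6.82% of all genes passed in these directions. For set 6 against set 3, 5 members differed, all downward, where 50.3% of all genes passed, 46.2% upward and 4.11% downward: Serpinb1a, Serpinb6b, Serpinb9, Serpina3g and Serpine2. After centring, 37.1% of all genes passed for set 5 against set 3 (18.7% upward, 18.5% downward). There 1 member passed upward and 5 downward, with Serpinb6b and Serpina3g added. For set 6 against set 3, 24.1% of all genes passed after centring (12.7% upward, 11.4% downward), and the same 5 members did. These comparisons share the set 3 libraries.

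Within a genotype, 6 members differed between set 5 and set 3 in KO cells and 5 in WT cells, where 73.2% of all genes did in KO cells (49.8% higher, 23.4% lower, and 71.3% either way after centring) and 67.6% in WT cells (29.3% higher, 38.3% lower). Serpinb6a rose and Serpinb6b, Serpinb9 and Serpina3g fell in both genotypes. Serpina3g fell by 1.81 in KO cells and by 0.98 in WT cells (adjusted p = 3.64e-06 and 0.00171). Between sets 6 and 5 far fewer genes moved, and both Serpina3 genes did. Serpina3g rose by 1.27 in KO cells and by 1.78 in WT cells (SE 0.24 each, adjusted p = 0.00387 and 0.000761), and Serpina3f by 1.28 and 1.94 (SE 0.33 each, adjusted p = 0.0229 and 0.00501). Thus 2 of 8 members passed in KO cells and, with Serpinf1, 3 of 8 in WT cells, where 12.0% (9.93% higher, 2.03% lower) and 3.37% (3.01% higher, 0.359% lower) of all genes passed. In KO cells the Serpina3f rise did not pass without replicate 1 or 3 of set 5 or replicate 2 or 3 of set 6 (adjusted p = 0.0542 to 0.0959), and against a minimum fold of 1.2 neither gene passed (adjusted p = 0.182 for Serpina3f and 0.0503 for Serpina3g).

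The order of levels over the 6 groups differed from member to member. Serpinb1a was highest in WT cells of sets 6 and 5, which overlapped with no other group, and lowest in WT cells of set 3, whose range overlapped that of KO cells of set 5. Serpina3g was highest in KO cells of sets 3 and 6 (means 11.51 and 10.98, overlapping ranges), and lowest in WT cells of set 5 (8.65). Serpine2 was highest in WT cells of set 6 (9.0) and lowest in KO cells of set 5 (7.33), whose range held 1 WT library of set 3. Serpinf1 was highest in KO cells of sets 6 and 5, whose ranges overlapped, and the next group, WT cells of set 6, lay below them. Genes most like Serpinb1a were Ogfrl1 (r = 0.930), Chsy1 (0.921) and Prkar2b (0.905), those most like Serpinb6a were Ctnna1, Cd47 and Trp53inp2 (0.988 to 0.989), and those most like Serpine2 were Septin2 (0.831), Stap1 (0.825) and Itgb1 (0.821).

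Markers of T cells were high in every library, with a log2 sum of 8 measured markers between 15.39 and 15.54 in KO libraries and between 15.73 and 15.87 in WT libraries of set 3. Some T cell markers moved with the genotype. In set 3 Cd4, Cd3g and Cd3d differed by -0.64, -0.38 and -0.30 (limma, adjusted p = 0.00251, 0.00311 and 0.0121). In sets 5 and 6 Lck, Cd4 and Cd3d rose, and of these Cd4 alone passed after centring. These are the T cell markers with the smallest adjusted p. Some markers of other cells also moved with the genotype in set 3, where 6.92% of all genes rose and 4.46% fell. Of 6 measured mast cell and basophil markers 5 rose, with a log2 sum of 9.23 to 9.59 in KO libraries against 5.80 to 6.78 in WT libraries. Of 7 B cell markers 5 rose (7.97 to 10.95 in KO libraries, 6.22 to 7.41 in WT libraries), and of 6 platelet and erythroid markers 2 rose (11.35 to 13.38 in KO libraries, 8.91 to 9.31 in WT libraries). Of 3 measured dendritic cell markers 2 rose (9.41 to 10.43 in KO libraries, 7.91 to 8.59 in WT libraries). In set 5, 2 of 4 macrophage markers rose (sum 9.35 to 9.82 in KO libraries, 7.24 to 7.65 in WT libraries), with Lyz2 at its library's lowest value in every WT library, and in set 6 also 2, with Lyz2 at the lowest value in every library of both genotypes. Ly6g, the only neutrophil marker measured, rose by 3.31 in set 5 and by 2.61 in set 6, and passed in both after centring. Among NK cell markers, Klrk1 rose in sets 3 and 5 (1.59 and 1.51) and Klra8 in set 5 (2.78). Of all genes 50.1% and 53.9% rose in sets 5 and 6. The mast cell and basophil sum was lower in KO libraries of set 5 (4.96 to 6.72 in KO libraries, 7.56 to 8.01 in WT libraries) and set 6 (5.94 to 6.58 in KO libraries, 7.56 to 7.73 in WT libraries), with Tpsb2 at the lowest value in all libraries of both sets. Of these 6 markers Kit alone fell, by 2.39 in set 5 and 2.63 in set 6, while Cpa3 rose in set 6, and the median marker differed by -0.02 and 0.18. The part of these markers in the serpin results was not tested.

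For KO against WT in set 3, the authors' deposited table has 5 members that rose and none that fell. In sets 5 and 6 of the authors' deposited table, 3 rose and 2 fell (set 5), and 1 rose and 2 fell (set 6), at an adjusted p under 0.05. The share of all genes that passed in the authors' deposited table was not computed here, so these counts have no background beside them. For Serpinb1a the authors' deposited table gives log2 fold changes of 3.01, -3.02 and -2.51 with adjusted p-values of 0.0303, 0.00381 and 0.015. For sets 5 and 6 combined, a contrast in the authors' deposited table, Serpinf1 has 4.90, Serpinb1a -2.77 and Serpine2 -1.0. In that table Serpina3f, Serpina3g and Serpinf1 also rose between WT sets 6 and 5, while no member passed between KO sets 6 and 5. The authors' test score is 0.0 for small fold changes, such as -0.14 for Serpinb9 in set 5. Their test is thus not the plain moderated test used here, and the calls stand at unlike thresholds. Both rest on the same libraries, so like counts are no separate evidence.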

How the data were processed

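RNA was measured by poly(A) RNA sequencing with a directional library kit in 18 libraries of mouse CD4 T cells, 3 in each of 6 groups, per the labels' protocols. The submitters' processing notes name Salmon 1.9.0, edgeR, limma and GRCm39 without their roles. The authors deposited log2 values of normalised counts for 12547 genes, which were used as they stand. Their normalization and offset are not given in the sources used here, and neither is the depth. Between 97.0% and 98.4% of sorted values were equal to within 1e-09 across the 3 libraries of a group, and what this does to the spread between replicates was not tested. The lowest values of a library were tied at 1.00 to 1.11. The authors also deposited a table of comparisons whose log2 fold changes, test scores and adjusted p-values were copied only where named.

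One limma 3.58.1 fit (R 4.3.3) of the 6 group means with a variance trend gave 10 contrasts with 12 residual degrees of freedom. P-values were two-sided and Benjamini-Hochberg adjusted over all genes, and a gene was called at an adjusted p under 0.05. Levels and differences are on the log2 scale, and fold changes are linear. Errors of group means are SDs over 3 libraries, and errors of differences are model standard errors. The fit was tested on simulated data with 200 changed genes. Alternatives were median centring, quantile normalization, 64 added on the linear scale, a filter that kept 10056 genes at a mean log2 of at least 6, a minimum fold of 1.2, no variance trend, a replicate block, the compared groups alone and each library left out. The replicate block within each genotype and the minimum fold of 1.2 after median centring were added after seeing the data. Same-numbered libraries deviated together between sets 6 and 5, with correlations of 0.222 to 0.341 in KO cells and 0.115 to 0.156 in WT cells, where every pair exceeded the 0.1 set for calling the numbers paired. Between sets 5 and 3 they were 0.025 to 0.154 in KO cells and 0.069 to 0.074 in WT cells, and between genotypes -0.081 to 0.177, so not every pair exceeded it.

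The members, gene lists and tests were chosen with earlier results of these data known. Beside the members, list genes were named by the lowest adjusted p per direction, with a few substrates and receptors fixed as partners, and for likeness the 3 genes with the highest Pearson r. Promoter windows came from RefSeq on GRCm38.p6 for 7 of 8 members, and coordinates refer to that build only. Sequences were searched with Python 3.11.15 and Biopython 1.88. Some genes and motifs that were planned are not reported here.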

Additional observations from a re-analysis of the deposited data

Results flagged for a closer look

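The effect of the Id3 knockout differed between sets for some members, by a test of the difference itself (limma, adjusted over all genes). In set 5 minus set 3 the effect differed by -6.03 for Serpinb1a, by -1.10 for Serpinb9, by -1.56 for Serpine2 and by 4.87 for Serpinf1. In set 6 minus set 3 it differed by -5.52 for Serpinb1a, by -0.70 for Serpinb6b, by -1.16 for Serpinb9, by -1.33 for Serpina3g and by -1.81 for Serpine2. These are 4 and 5 of 8 members, where 50.0% and 50.3% of all genes passed in the same comparisons. Serpinb1a passed upward in set 3 and downward in sets 5 and 6. Serpinb5, which is not among the 8 members, differed between genotypes by 1.05 in set 3 (adjusted p = 0.152), -2.49 in set 5 and -2.97 in set 6.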

How the results depend on the processing

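Of 38 called values of single members, none changed sign under any alternative. Median centring, quantile normalization, the fit without a variance trend and the replicate block kept all 38 calls. The filter on low values kept the 32 calls it could test. The minimum fold of 1.2 lost 3 of them, the compared groups alone 6, 64 added 1, and the minimum fold of 1.2 after centring 4, and leaving out 1 library lost the call in 15 of 282 cases. The called members in set 3 were 2 with the compared groups alone, and in set 5 were 3 with the minimum fold of 1.2 after centring. Between sets 6 and 5 in KO cells 0 members were called against the minimum fold of 1.2, with and without centring, and 1 with the compared groups alone. Leaving out each library gave 3 to 6 called members in set 3, 5 to 5 in set 5 and 3 to 5 in set 6. For the difference of effects it gave 4 to 5 (sets 5 and 3), 4 to 5 (sets 6 and 3) and 0 to 0 (sets 6 and 5). Within genotypes it gave 6 to 7 and 5 to 6 for set 5 against set 3, and 1 to 3 and 2 to 3 for set 6 against set 5, in KO and WT cells. The cause of these changes was not tested.

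The reversals were of values not called. With median centring, alone or with the minimum fold, Serpinb6a was -0.046 and -0.24 and Serpinb6b -0.018 and -0.22 in sets 5 and 6, the Serpinb6a effect of set 5 minus set 3 was -0.38, and Serpina3f in KO cells of set 5 against set 3 was -0.069. Quantile normalization gave -0.062, -0.24, -0.019, -0.22, -0.35 and -0.065 for these, and -0.0069 for Serpinb6b in KO cells of set 6 against set 5. With 1 library left out, the Serpinb6a effect ran from -0.25 to 0.34 (set 5 minus set 3) and from -0.42 to 0.17 (set 6 minus set 3), and that of Serpina3f from -0.43 to 0.13 (set 5 minus set 3). In the same way Serpinf1 and Serpine2 in WT cells of set 5 against set 3 ran from -1.59 to 0.19 and from -0.068 to 0.61, and Serpinb6b in KO cells of set 6 against set 5 from -0.064 to 0.28. Within each genotype, the replicate block also called Serpina3g in set 5 minus set 3 (-0.83, adjusted p = 0.0485) and Serpinf1 in set 6 minus set 3 (2.24, 0.0176), and the replicate block over all groups left 5 called members in set 3, 5 in set 5 and 3 in set 6. Without depth, counting error cannot be given, and genes near the lowest values, such as Serpinf1 in WT libraries, are the least certain.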

Other observations

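Among the KO libraries of sets 5 and 6, Serpinb1a and the remaining Id3 signal fell in the same order, a pair chosen after the values were seen. In set 5 Serpinb1a was 3.07, 6.23 and 4.49 in replicates 1, 2 and 3, where Id3 was 2.02, 5.63 and 2.80. In set 6 Serpinb1a was 4.78, 7.36 and 5.88, where Id3 was 1.0, 4.97 and 4.46. Replicate 1 was lowest and replicate 2 highest for both genes in both sets. Serpina3f and Serpinb6a had the same order in these KO libraries, and the remaining members did not have it in both sets. Same-numbered KO libraries of sets 5 and 6 deviated together (correlations of 0.222 to 0.341), so the sets do not count as separate observations. In the KO libraries of set 3 Serpinb1a was 6.98, 5.19 and 6.23 and Id3 was 2.15, 3.35 and 3.64, which did not share an order. The relation was not tested.

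Serpinb2 was at or near the lowest value of the library in replicate 1 of all 6 groups, between 1.0 and 1.11. Replicates 2 and 3 of WT cells stood at 3.17 and 4.18 in set 5 and at 7.48 and 7.04 in set 6.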
